A study of Mus musculus with 4 samples.

Results

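Dense NFIC peak clusters are stretches of the mouse genome in which peaks of NFIC ChIP-Seq lie close together. They were chosen by position alone: the peaks of the autosomes were sorted along each chromosome, neighbours were joined when the next peak started at most 12.5 kb past the end of the previous peak, and groups of 4 or more peaks were kept. This gave 233 clusters that hold 1056 peaks, of 15652 autosomal peaks and 15824 peaks in all. The number of peaks, the gaps between them and the density of a cluster are what the rule used, and they are given below as a description.

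The study mapped where NFIC sits on the genome of the normal, wild-type mouse pancreas by ChIP-Seq. There were 3 libraries made with an anti-NFIC antibody and 1 library of input DNA, all from mice of a strain labelled Mixed, aged 8 to 12 weeks in the deposited design. Both groups came from whole pancreas, in which acinar cells are mixed with ductal, islet and other cells, and a peak list gives no levels of marker genes by which the tissue could be checked. Binding in few cells and weak binding in many cannot be told apart in such tissue. The authors deposited 1 merged list of peaks on the mm10 build, which is GRCm38, without values for single libraries or for the input DNA. The spread between libraries and their depth are therefore unknown, and no test over samples was made. Shares are given with 95% Wilson confidence intervals and medians with 95% intervals from order statistics. Both cover counting error only, and peaks of a cluster are neighbours on the chromosome and not independent of each other.

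NFIC belongs to the nuclear factor I (NFI) family, whose other members are NFIA, NFIB and NFIX. NFI proteins bind DNA as dimers, and each subunit contacts one arm of a palindrome whose arms are separated by a spacer of fixed length. In the pancreas, NFIC is present in acinar cells, which produce the digestive enzymes. Groups of neighbouring binding sites of a factor are a known feature of enhancers and of the surroundings of highly regulated genes.

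The full NFI site was searched as TGGCNNNNNGCCA on both strands, allowing 1 of the 8 fixed bases to differ, in windows of 200 bp centred on each peak. The peaks below were the highest of clusters that stand out by score or number of peaks, and they show how such sites sit in a peak of 173 bp. Each is printed on the plus strand of mm10 with its position and the authors' peak score, in lower case, with the full sites that lie within the peak in capitals.
*Bahcc1* cluster, chr11:120255180-120255352, score 43.8: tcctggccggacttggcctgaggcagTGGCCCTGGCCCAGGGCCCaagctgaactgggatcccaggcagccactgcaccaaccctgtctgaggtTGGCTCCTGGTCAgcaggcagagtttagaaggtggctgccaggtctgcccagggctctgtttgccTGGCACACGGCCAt
*Slc9a3r1* cluster, chr11:115160104-115160276, score 32.3: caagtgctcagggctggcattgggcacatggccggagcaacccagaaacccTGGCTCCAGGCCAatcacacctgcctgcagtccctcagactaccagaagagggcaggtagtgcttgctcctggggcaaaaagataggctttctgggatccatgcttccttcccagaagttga
*Nfic* cluster, chr10:81435569-81435741, score 30.5: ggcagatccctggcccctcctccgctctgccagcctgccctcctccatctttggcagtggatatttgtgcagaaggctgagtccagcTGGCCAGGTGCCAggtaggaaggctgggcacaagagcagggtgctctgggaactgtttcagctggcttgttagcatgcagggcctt
*Lncppara* cluster, chr15:85653463-85653635, score 25.3: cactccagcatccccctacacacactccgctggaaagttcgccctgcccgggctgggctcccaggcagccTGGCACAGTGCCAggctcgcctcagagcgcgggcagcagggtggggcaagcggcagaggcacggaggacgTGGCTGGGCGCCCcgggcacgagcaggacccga
The first of these holds 4 full sites, of which 2 overlap each other. All 4 peaks hold a full site without a mismatch. Not every high peak did: another peak of the *Lncppara* cluster, with a score of 14.9, had no full site in its window.
*Lncppara* cluster, chr15:85671126-85671298, score 14.9: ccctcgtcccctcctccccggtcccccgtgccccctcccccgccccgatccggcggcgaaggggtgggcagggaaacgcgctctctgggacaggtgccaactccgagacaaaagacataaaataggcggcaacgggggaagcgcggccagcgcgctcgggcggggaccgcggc

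Most clusters were only just large enough to be kept. There were 157 clusters of 4 peaks, 46 of 5, 20 of 6, 5 of 7, 2 of 8 and 3 of 9. On the other side of the limit lay 485 groups of 3 peaks, beside 1883 pairs and 9375 single peaks. Clusters spanned a median of 21287 bp, from 2764 to 61689 bp, and together covered 5.22 Mb or 0.212% of the length of the autosomes. They held 6.75% of the autosomal peaks. This amounts to 202 peaks per Mb in clusters, beside 6.36 peaks per Mb over the autosomes.

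The gaps inside clusters had a median of 6253 bp and quartiles of 3165 and 8766 bp. The smallest was 245 bp and the largest 12477 bp, while the smallest distance that kept a group of 3 or more peaks apart from its neighbour was 12584 bp. Gaps over 10000 bp occurred in 106 clusters (45.5%), so many clusters hang together by at least 1 long gap. In 9 clusters all gaps were under 5000 bp. Groups of 3 and of 4 peaks, just outside and just inside the limit on number, had median spans of 12727 and 19160 bp, and the medians of their median scores were 7.57 and 8.16. Of the groups of 3, 50 had a neighbouring peak 12.5 to 15 kb away.

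The peak score is a number that the authors' software gave each peak, on a scale that the sources used here do not name. All scores under 10 were within 0.01 of a whole multiple of 0.199, so medians move in such steps. The score and the positions come from the same peak calling, and the scores are therefore described and not tested. Cluster peaks had a median score of 7.97 (95% interval 7.77 to 8.37). Single peaks had a median of 6.17 (6.17 to 6.17), pairs of 6.97 (6.77 to 6.97) and groups of 3 of 7.57 (7.37 to 7.77). Within the clusters the median did not go on increasing with size: it was 8.17 (7.77 to 8.56) in groups of 4, 7.77 (7.37 to 8.37) in groups of 5 and 8.07 (7.57 to 8.76) in groups of 6 or more.

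Of all peaks in the list, 25.5% had a score in the upper quartile, which begins at 9.16. The share was 38.9% (36.0 to 41.9) among cluster peaks and 21.9% (21.1 to 22.8) among single peaks. Pairs had 27.6% (26.2 to 29.0) and groups of 3 had 35.7% (33.2 to 38.2), with an interval that overlaps that of clusters. At least 1 such peak was present in 196 clusters (84.1%), and 8 clusters consisted of them entirely. The other 37 clusters had none. When only peaks with a score at or above the median of the list were joined, the medians were 9.66 (9.36 to 10.2) for 366 cluster peaks and 8.76 (8.76 to 8.96) for single peaks. The order was thus kept among higher peaks, with a smaller distance between the medians.

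**Figure D1:**
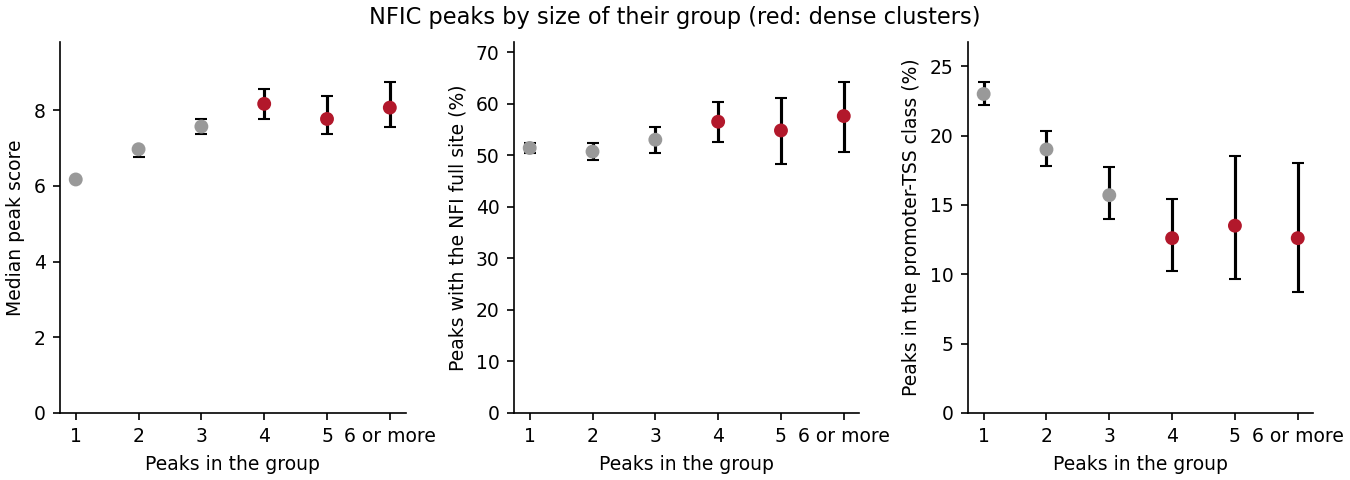
Median peak score, percentage of peaks with the NFI full site and percentage of peaks in the promoter-TSS class (y axes) by the number of peaks in the group (x axis), with 95% intervals as bars; red points are dense clusters. The median score went from 6.17 for single peaks to 8.17 for groups of 4, and the promoter-TSS share from 23.0% to 12.6%, with little further movement in larger clusters.

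High and low peaks were found side by side in the same cluster. The highest score of a cluster was a median of 2.27 times its lowest, and this ratio ranged from 1.13 to 6.32. The SD of log2 scores was 0.551 within clusters and 0.597 over all cluster peaks, with an intraclass correlation of 0.15, so membership in the same cluster went with only slightly more alike scores. The median score of a cluster ranged from 4.28 to 21.6, and the highest score from 4.78 to 43.8. Inner peaks had a median of 8.37 (7.97 to 8.76; 590 peaks), and the 466 peaks at either end of a cluster 7.57 (7.37 to 7.97). The highest peak was an end peak in 94 clusters (40.3%), where 44.1% of all cluster peaks are end peaks. The focus ratio, the fraction of a peak's tags near its centre, had a median of 0.689 (0.684 to 0.694) in clusters and 0.684 (0.682 to 0.685) in single peaks, so the shape of the peaks hardly differed.

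The full NFI site was present in 51.8% of the peaks in the list. Among cluster peaks the share was 56.3% (53.3 to 59.3), and among single peaks 51.4% (50.4 to 52.4). Pairs had 50.7% (49.1 to 52.3) and groups of 3 had 53.0% (50.4 to 55.5). With a joining distance of 5000 bp, which left 52 peaks in clusters, the share was 48.1% (35.1 to 61.3), below that of all peaks but with an interval that includes it. Among peaks with a score at or above the median of the list, the shares were 60.7% (55.6 to 65.5) in clusters and 59.2% (57.8 to 60.5) for single peaks, with overlapping intervals. Sites without a mismatch did not follow this order: they were present in 12.8% (10.9 to 14.9) of cluster peaks, 14.2% (13.5 to 14.9) of single peaks and 13.4% of all peaks. At least 2 full sites were found in 10.7% (8.98 to 12.7) of cluster peaks and 7.75% (7.23 to 8.31) of single peaks. Pairs had 9.24% (8.36 to 10.2) and groups of 3 had 9.55% (8.15 to 11.2). By class, the shares of cluster and single peaks lay furthest apart at promoters. In the promoter-TSS class 50.4% (42.0 to 58.7) of cluster peaks and 33.8% (31.8 to 35.8) of single peaks had a full site. Promoter peaks of pairs had 37.3% (33.9 to 40.9) and those of groups of 3 had 41.9% (35.7 to 48.4). The interval of the latter overlaps that of clusters. In introns the shares of cluster and single peaks were 60.1% (55.8 to 64.2) and 57.7% (56.0 to 59.3), and in intergenic regions 53.4% (47.8 to 58.8) and 56.3% (54.5 to 58.1).

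Full sites were denser in the peaks than in the DNA between them. In windows of 200 bp midway between neighbouring cluster peaks, taken where the gap was at least 1000 bp, 79 of 746 windows (10.6%, 8.58 to 13.0) held a full site. Counted over length with at most 1 mismatch, there were 37.4 sites per 10 kb in cluster peaks as listed and 5.94 in the gaps between them. Flanks of the same length on either side of the clusters had 5.68 and the autosomes 3.34 sites per 10 kb. For sites without a mismatch the densities were 7.44 in peaks, 0.266 in gaps, 0.269 in flanks and 0.157 over the autosomes. Gaps and flanks were thus alike by either count. Of 272 exact sites within the cluster spans 50.7% lay in a peak window, beside 5.66% of the exact sites of the autosomes. Clusters were chosen for dense peaks, with 202 peaks per Mb beside 6.36 over the autosomes, so peak windows fill more of their length. A larger share in windows is thus set in part by the joining rule. These shares do not show that exact sites in clusters are more confined to peaks. The base composition of these regions was not matched.

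**Figure D2:**
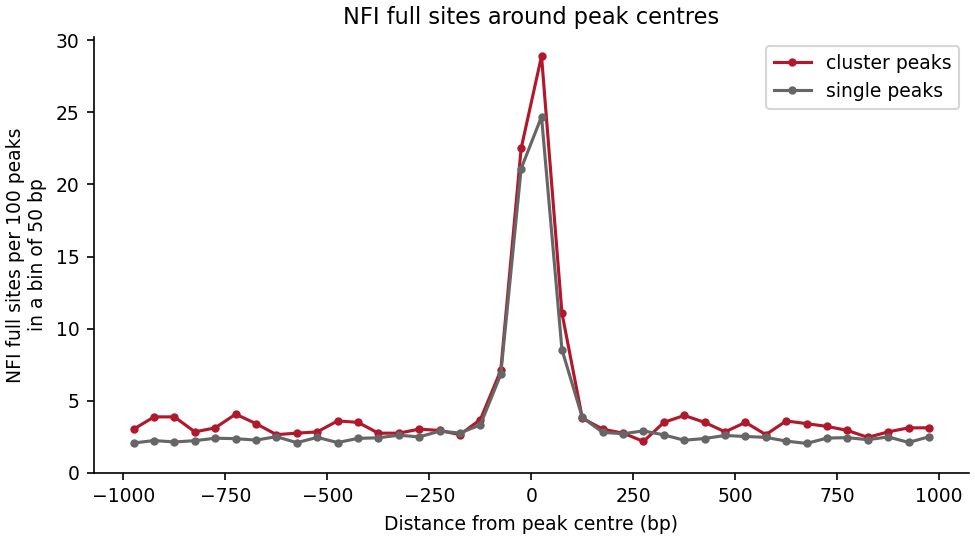
NFI full sites per 100 peaks in bins of 50 bp (y axis) by distance from the centre of the peak (x axis) for cluster peaks and single peaks. Both profiles peak next to the centre, at 28.9 and 24.7 sites per 100 peaks, and lie between 2.07 and 3.12 in the outermost bins.

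Most clusters had several peaks with a site. Sites were found in at least 2 peaks of 194 clusters (83.3%) and in every peak of 16 clusters, whereas 5 clusters had none. An exact site was present in 114 clusters (48.9%). Of all peaks in the list 51.8% had a full site and 13.4% an exact site. At these shares alone, many groups of several peaks would hold such sites. The counts per cluster were not compared with that, so they are not shown to be particular to clusters. On average 56.3% ± 22.7 (SD, n = 233) of the peaks of a cluster held a full site. In cluster peaks with a site, the site lay a median of 23.5 bp from the centre of the peak. Cluster peaks with a site had a median score of 8.96 (8.56 to 9.16), and those without a site 7.37 (6.97 to 7.77). Single peaks had lower medians in both cases, 6.77 (6.57 to 6.77) and 5.78 (5.78 to 5.78).

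Short motifs of other factors were counted in the same windows on both strands, as a description of the sequence and not of binding. The SP motif (GGGCGG), bound by SP and KLF proteins, was present in 16.5% (14.4 to 18.8) of cluster peaks and 22.4% (21.6 to 23.3) of single peaks, with 19.8% in pairs, 18.8% in groups of 3 and 21.1% over all peaks. The E-box CAGCTG, which bHLH proteins such as PTF1A can bind, was present in 24.0% (21.5 to 26.6) of cluster peaks, 20.3% (19.5 to 21.1) of single peaks and 21.4% of all. Pairs (23.0%) and groups of 3 (22.9%) had nearly the share of clusters. GATAAG, the GATA motif, was found in 8.81% (7.24 to 10.7) of cluster peaks and 7.42% (6.91 to 7.97) of single peaks, with 7.74% over all. The FOX motif TGTTTAC had shares of 4.55%, 3.89% and 3.99%, and the NR5A2 motif CAAGGTCA of 2.27%, 1.86% and 2.04%, in cluster, single and all peaks. The intervals of the last 3 motifs overlapped. A lone NFI arm, TTGGCA, had nearly the same share in cluster peaks (34.3%) as in all peaks (33.7%). Each of these motifs can overlap a full NFI site, and the arm can be part of it.

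The share of intronic peaks was higher, and that of promoter peaks lower, among cluster peaks than among single peaks, which is a description without a test. Introns held 48.9% (45.9 to 51.9) of cluster peaks and 38.6% (37.6 to 39.6) of single peaks, intergenic regions 29.5% (26.8 to 32.3) and 31.2% (30.3 to 32.1). For pairs and groups of 3 the intronic shares were 42.9% (41.3 to 44.5) and 44.9% (42.4 to 47.5). The promoter-TSS class of the authors' annotation held 12.8% (10.9 to 14.9) of cluster peaks, 23.0% (22.2 to 23.9) of single peaks and 20.7% of all peaks. CpG content also differed: the median ratio of observed to expected CpG was 0.240 (0.224 to 0.250) in cluster peaks and 0.298 (0.290 to 0.305) in single peaks, while the median GC content was 55.0% and 53.5%. Groups of 3 had a CpG ratio of 0.245 (0.234 to 0.260), nearly that of clusters, and pairs one of 0.278 (0.267 to 0.290). The promoter-TSS share was 19% in pairs and 15.7% in groups of 3. From single peaks to clusters it thus fell along with the SP share and the CpG ratio. Within clusters, groups of 4 and of 6 or more had the same promoter-TSS share (12.6%). The SP motif was present in 15.0% (12.4 to 18) and 21.2% (16.1 to 27.4) of their peaks. Their CpG ratios were 0.228 (0.216 to 0.247) and 0.271 (0.234 to 0.3). The intervals overlap in both cases, which does not decide whether the 2 sizes differ, and this was not tested. The part of base composition in the shares above was not tested. The median distance to the nearest TSS was 9407 bp in clusters, 8724 bp in groups of 3, 7988 bp in pairs and 13083 bp for single peaks, so the shorter distance was not particular to clusters. Within 1000 bp of a TSS lay 17.9% of cluster peaks, 21.3% of groups of 3, 27.2% of pairs and 29.4% of single peaks.

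Seen as regions, clusters usually included the start of a gene. A protein-coding TSS was held by 130 clusters (55.8%, 49.4 to 62.0), by 43.7% (39.4 to 48.2) of groups of 3 and by 34.9% (32.8 to 37.1) of pairs. The regions with a TSS also differed in length, with median spans of 22249, 13164 and 6262 bp, and a longer region has more room for a TSS. Another 48 clusters lay inside a gene body, 20 overlapped the end of a gene and 35 lay outside protein-coding genes. Clusters held 37 genes with a TSS per Mb, and the autosomes 8.13. This density was not computed for pairs and groups of 3, so it is not shown to be particular to clusters. A promoter peak was present in 103 clusters (44.2%), and 27 clusters had at least 2. In 42 clusters all peaks were intronic, and in 29 all were intergenic. A single nearest gene was named for all peaks of 121 clusters, whereas 26 clusters were shared by 3 or more genes and the maximum was 5.

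Clusters were unevenly spread over the chromosomes, only in part along with the peaks themselves. Chromosome 11, which has the most peaks per Mb (10.6), held 26 clusters, or 21.3 per 100 Mb, and 9.08% of its peaks were cluster peaks. Chromosome 13, with 5.49 peaks per Mb, held 4 clusters, or 3.32 per 100 Mb, and 2.42% of its peaks. Chromosome 3 was similar, with 6 clusters and 3.54% of its peaks. Chromosome 12 had nearly the peak density of chromosome 13, 5.47 peaks per Mb, but 6.66 clusters per 100 Mb.

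The cluster at *Uck2*, which encodes a uridine-cytidine kinase of pyrimidine salvage, was one of the 3 with 9 peaks. All 9 lay in introns of this gene over 52995 bp of chromosome 1 (167231441 to 167284435), and 7 of them in its first intron. The scores along the chromosome were 5.18, 5.58, 16.7, 6.57, 11.6, 12.3, 7.37, 8.76 and 9.96. The 5 peaks with a full site had the 5 highest scores of the cluster. A full site of each is shown with 9 bases on either side and the site in capitals, to compare the sites within a cluster. Where a peak holds several, the site with the fewest mismatches is shown, or the one nearest to the centre of the peak.
*Uck2*, peak at chr1:167247088-167247260, score 16.7: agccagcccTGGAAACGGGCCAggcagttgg
*Uck2*, peak at chr1:167261858-167262030, score 11.6: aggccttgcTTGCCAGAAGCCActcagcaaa
*Uck2*, peak at chr1:167262742-167262914, score 12.3: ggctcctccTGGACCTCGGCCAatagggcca
*Uck2*, peak at chr1:167272015-167272187, score 8.76: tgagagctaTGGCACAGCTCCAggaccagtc
*Uck2*, peak at chr1:167284263-167284435, score 9.96: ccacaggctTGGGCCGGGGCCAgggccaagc
None of these sites was free of a mismatch, and the last peak lay 778 bp past the TSS of the gene.

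The *Hdhd3* cluster, on chromosome 4 from 62479914 to 62525497, also had 9 peaks but was divided among 4 nearest genes. These include *Bspry*, *Hdhd3*, which encodes a protein of the haloacid dehalogenase family, and *Alad*, the enzyme of the second step of heme synthesis. Its scores ran from 4.78 to 15.7, and 3 peaks were in the promoter-TSS class. The TSSs of 5 protein-coding genes lay inside it. The highest peak, with a score of 15.7, lay in an exon of the transcript annotated at *Bspry*, while the nearest TSS, 6054 bp away, was that of *Hdhd3*.

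The *Cish* cluster had 8 peaks over 44875 bp of chromosome 9, from 107278939 to 107323813. *Cish* encodes an inhibitor of cytokine signalling of the SOCS family, and *Mapkapk3*, nearest to 3 of the peaks, a kinase downstream of p38. The scores were 6.57, 6.57 and 5.38 at *Mapkapk3*, then 8.56, 8.56, 16.9 and 16.1 at *Cish*, and 13.1 at the last peak, nearest to *Hemk1*. The higher peaks were thus on the *Cish* side, 11447 and 19391 bp past its TSS in intergenic DNA. The 2 peaks at the *Mapkapk3* promoter, both annotated 60 bp from a TSS, were the only ones without a full site. The first peak is shown whole, because it holds 2 exact sites, and the 2 highest peaks by their site as before.
*Cish* cluster, chr9:107278939-107279111, score 6.57: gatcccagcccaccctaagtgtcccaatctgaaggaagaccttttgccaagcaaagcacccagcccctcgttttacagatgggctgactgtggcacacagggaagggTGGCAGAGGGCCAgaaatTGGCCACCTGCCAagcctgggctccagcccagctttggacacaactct
*Cish* cluster, peak at chr9:107308020-107308192, score 16.9: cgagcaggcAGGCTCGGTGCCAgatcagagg
*Cish* cluster, peak at chr9:107315964-107316136, score 16.1: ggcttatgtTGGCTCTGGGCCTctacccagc
Both exact sites belonged to this first peak, whose score was below the median score of the cluster, 8.56.

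The *Tmem189* cluster on chromosome 2 was the longest, with 8 peaks over 61689 bp, and took in *Ube2v1*, *Tmem189* and *Cebpb*. *Cebpb* encodes a bZIP factor that is induced in inflammation and in the unfolded protein response. The peak nearest to it, 7941 bp upstream of its TSS, had a score of 4.78, and it was the second lowest of the cluster. Scores of 11.6 and 11.4 were reached at *Tmem189*. None of the 8 peaks was left in a cluster when only peaks at or above the median score of the list were joined.

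**Figure D3:**
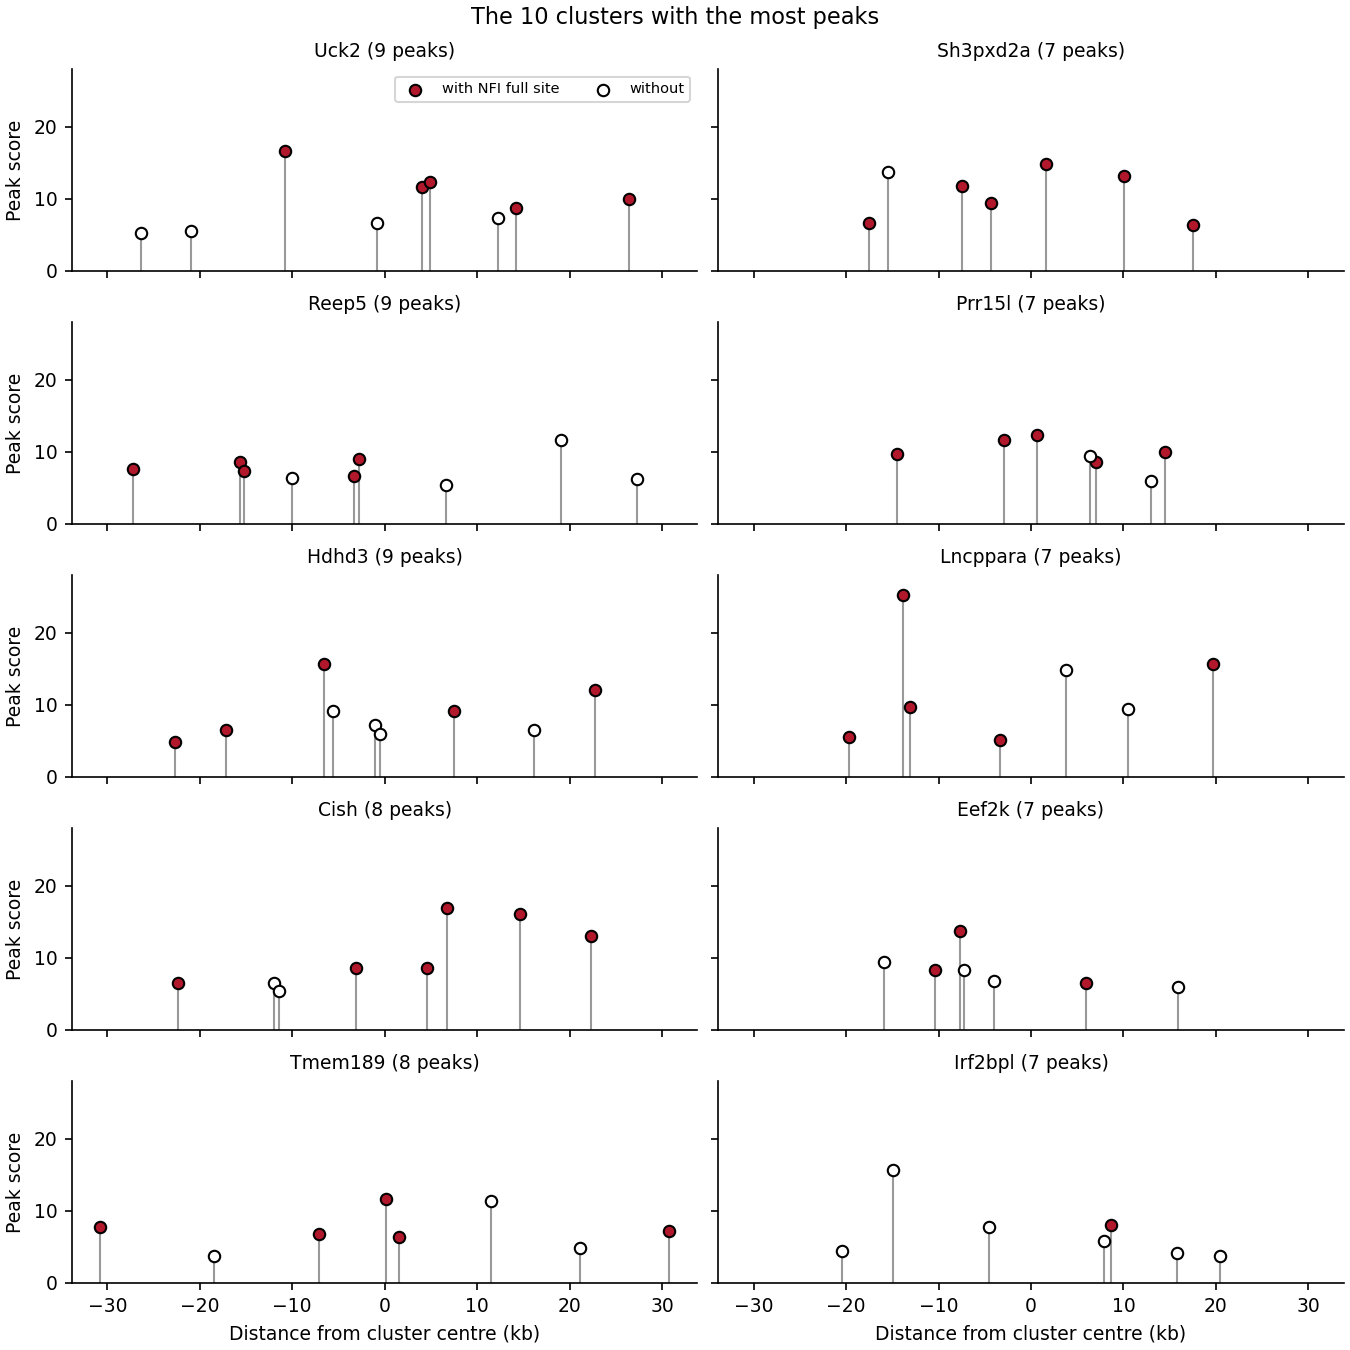
Peak score (y axis) by distance from the centre of the cluster in kb (x axis) for the 10 clusters with 7 or more peaks, with filled points for peaks that hold an NFI full site. The 9 *Uck2* peaks lie between scores of 5.18 and 16.7, and the 7 *Lncppara* peaks between 5.18 and 25.3.

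Clusters of 7 peaks were found at *Sh3pxd2a*, *Prr15l*, *Lncppara*, *Eef2k* and *Irf2bpl*. At *Sh3pxd2a*, which encodes a scaffold protein of podosomes, all 7 peaks were intronic, 6 held a full site, and the scores lay between 6.37 and 14.9 with a median of 11.8. The *Eef2k* cluster, at the gene of the kinase that inactivates translation elongation factor 2, had 1 promoter peak with a score of 9.36 and 6 intronic peaks from 5.98 to 13.7. The *Prr15l* cluster was divided among 4 genes, and its scores were between 5.98 and 12.3.

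The other 2 lay outside protein-coding genes and had the widest range of scores among clusters of this size. In the *Lncppara* cluster all peaks were nearest to this long non-coding RNA gene, 16641 to 56064 bp upstream of its TSS, with scores of 5.58, 25.3, 9.76, 5.18, 14.9, 9.36 and 15.7. Its 2 exact sites belong to peaks that lie 617 bp apart, with scores of 25.3 and 9.76. In the *Irf2bpl* cluster a peak of 15.7 stood beside 6 peaks between 3.78 and 7.97, and 1 of its 7 peaks held a full site.

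The highest median score, 21.6, belonged to 4 peaks in introns of *Bahcc1*, which encodes a chromatin protein with a BAH domain. They lay within 7567 bp of chromosome 11, between 22319 and 29713 bp past the TSS, with scores of 43.8, 17.3, 25.9 and 13.3. The score of 43.8 was the highest of all cluster peaks. At *Chka*, which encodes choline kinase alpha of phosphatidylcholine synthesis, scores were 17.7, 6.57, 18.7 and 15.3. At *Slc9a3r1*, the gene of the scaffold protein NHERF1 of apical membranes, they were 32.3, 10.8, 20.5 and 6.37. Its highest peak lay 3151 bp upstream of the TSS, in an intron of *Rab37*.

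The *Nfic* gene itself was in a cluster, with the second highest median score, 18.9. Its 4 peaks lay on chromosome 10 from 81412083 to 81435741 with scores of 11.2, 26.7, 8.56 and 30.5. The peak of 26.7 was annotated to the promoter-TSS class of a microRNA gene, the peak of 8.56 to the first intron of *Nfic* 2203 bp past its TSS, and the peak of 30.5 lay 8482 bp upstream of the same TSS. The 2 high peaks and the first peak held a full site, and the exact one belonged to the peak of 30.5. A site of each of the first 2 peaks, with 1 mismatch, can be set beside the exact site of the whole peak printed above.
*Nfic* cluster, peak at chr10:81412083-81412255, score 11.2: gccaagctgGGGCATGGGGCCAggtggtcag
*Nfic* cluster, peak at chr10:81417027-81417199, score 26.7: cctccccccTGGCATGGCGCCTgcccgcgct
*Nfix*, another gene of the family, had 4 peaks inside its body with scores of 15.5, 9.76, 5.38 and 7.37, although 3 of them have the TSS of *Lyl1*, which encodes a bHLH factor of blood cells, as the nearest. The fourth of these held an exact site.
*Lyl1* cluster, peak at chr8:84744091-84744263, score 7.37: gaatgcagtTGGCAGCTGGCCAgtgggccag
*Nfia* and *Nfib* had peaks but none in a cluster, so 2 of the 4 family members (50%, 15 to 85) were the nearest gene of a cluster peak, beside 4.27% of all autosomal protein-coding genes with a peak.

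**Figure D4:**
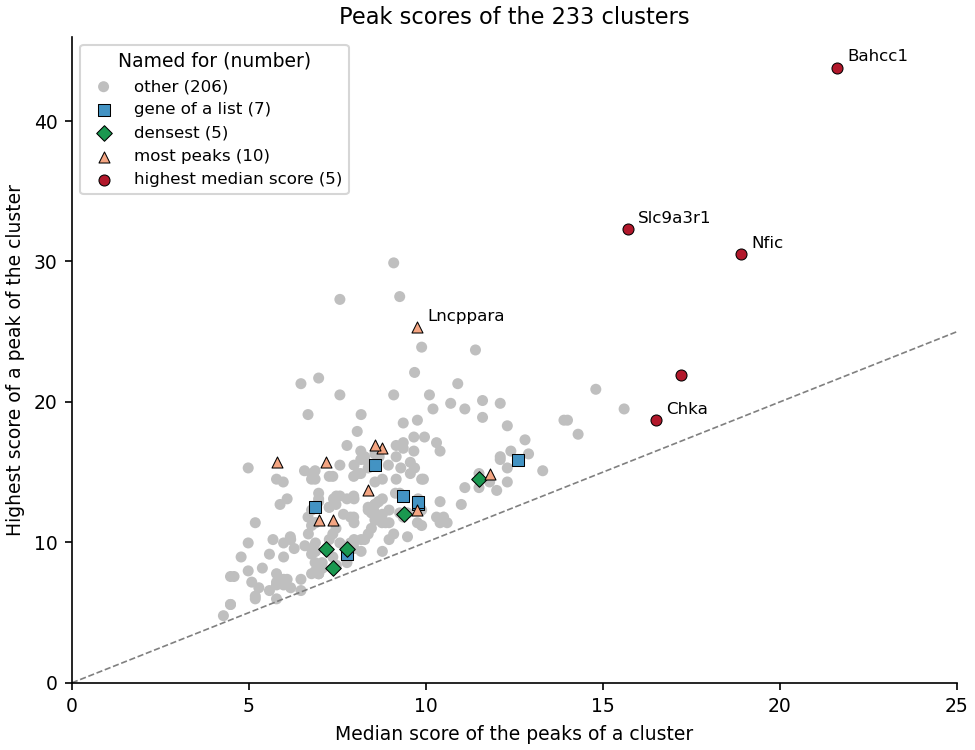
Highest score (y axis) by median score (x axis) of the peaks of each of the 233 clusters, with clusters that the naming rule picks marked by the reason; the dashed line marks equal values. *Bahcc1* lies apart at 21.6 and 43.8, and *Lncppara* combines a median of 9.76 with a highest score of 25.3.

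The clusters with the most peaks per length were short stretches of 4 peaks. At *Pfkfb3*, which encodes a regulator of glycolysis, 4 peaks lay within 2764 bp around the promoter, with scores of 7.37, 6.37, 8.17 and 7.37. The *Ccdc121* cluster held 4 peaks within 4978 bp of an intron of *Cnih3*, and the *Grik4* cluster 4 within 5073 bp of the first intron of this glutamate receptor gene. The *Foxo6* and *Tmcc2* clusters spanned 6148 and 7013 bp. Scores in these 4 clusters ran from 5.78 to 14.5, and no exact site was found in any of the 5 densest clusters.

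Genes of pancreatic function were then counted among the genes nearest to cluster peaks. Of 20558 autosomal protein-coding genes, 7704 were the nearest gene of any peak, which is the background for the counts of genes with a peak. Over all autosomal protein-coding genes 1.6% were the nearest gene of a cluster peak, 4.27% of those with any peak were, and 0.939% had their TSS inside a cluster. The counts in the lists below are small, and their intervals are wide beside these shares.

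Of the 20 acinar transcription factors, which include *Ptf1a*, *Nr5a2*, *Gata6* and *Bhlha15*, 17 were the nearest gene of a peak but none of a cluster peak. A count of 0 of 17 allows a share of up to 17.6%, when 3 counts are taken as the limit for a count of 0. Groups at these genes had at most 3 peaks. *Bhlha15*, which encodes the secretory cell factor MIST1, had 5 peaks in groups of up to 3 with a highest score of 17.9, and *Xbp1*, a factor of the unfolded protein response, 3 peaks, in groups of up to 3, with a highest score of 12.9.

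Among digestive enzymes and secretory proteins 26 of 38 genes had a peak, and 3 of these (11.5%, 4.0 to 29.0) were the nearest gene of a cluster peak. *Pnliprp2*, which encodes a pancreatic lipase-related protein, was the nearest gene of all 4 peaks of its cluster, which lay upstream on chromosome 19 from 58747593 to 58759604. From far to near, at 12044, 6970, 696 and 205 bp before the TSS, the scores were 8.37, 11, 12.9 and 8.56. The 2 peaks near the promoter are shown whole, with the full sites in capitals, because they alone in this cluster held a site.
*Pnliprp2* cluster, chr19:58758941-58759113, score 12.9: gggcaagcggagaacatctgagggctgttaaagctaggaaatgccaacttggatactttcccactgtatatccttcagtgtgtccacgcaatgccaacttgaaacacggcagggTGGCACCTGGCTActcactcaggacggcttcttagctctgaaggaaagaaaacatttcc
*Pnliprp2* cluster, chr19:58759432-58759604, score 8.56: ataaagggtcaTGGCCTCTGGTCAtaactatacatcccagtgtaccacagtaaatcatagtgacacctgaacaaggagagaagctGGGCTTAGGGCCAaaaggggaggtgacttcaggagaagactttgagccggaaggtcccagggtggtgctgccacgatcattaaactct
*Pla2g1b*, the gene of pancreatic phospholipase A2, shared a cluster with *Msi1* and was nearest to its peaks of 7.97 and 5.18. *Ctrc*, which encodes chymotrypsin C, was nearest to the lowest peak (3.98) of a cluster of 4 at *Efhd2*. The table of protein-coding genes used here does not list *Ctrc*, and it is not in the count.

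*Klk1*, the tissue kallikrein gene, lay in a cluster of 5 peaks with its paralogs *Klk1b3* and *Klk1b5*. *Klk1b4* also has its TSS in the cluster but was the nearest gene of none of its peaks. By nearest gene, the scores were 6.17 at *Klk1b3*, 5.58 and 9.16 at *Klk1b5*, and 8.37 and 7.77 at *Klk1*. The peak of 5.58 was annotated to a transcript end, 4074 bp upstream of the *Klk1b5* TSS. In *Klk1b3*, *Klk1b5* and *Klk1* the peak with a full site lay in the second intron, 2725, 2707 and 2826 bp past the TSS. The sites are shown because they and the bases around them are nearly the same.
*Klk1b3*, peak at chr7:44200830-44201002, score 6.17: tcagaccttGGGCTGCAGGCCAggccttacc
*Klk1b5*, peak at chr7:44219095-44219267, score 9.16: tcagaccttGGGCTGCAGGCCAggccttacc
*Klk1*, peak at chr7:44228100-44228272, score 7.77: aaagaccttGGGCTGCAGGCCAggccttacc
The peaks at *Klk1b3* and *Klk1b5* shared 51.9% of their words of 12 bases. How the authors placed reads that match several copies is not given in the sources used here, so the peak at each paralog is uncertain.

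Of 23 circadian clock genes 18 had a peak, and *Per2*, a repressor of the clock, alone was the nearest gene of a cluster peak (5.56%, 0.988 to 25.8). Its 5 peaks had scores of 13.3, 12.9, 6.97, 9.36 and 6.97, of which the first is nearest to *Hes6* by TSS. The peak of 9.36, 5312 bp upstream of the *Per2* TSS, held an exact site.
*Per2* cluster, peak at chr1:91464554-91464726, score 9.36: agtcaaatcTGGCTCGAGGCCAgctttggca
Other clock genes had groups of at most 3 peaks, among them *Arntl* and *Cry2*, with highest scores of 17.1 and 13.9.

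Of 26 genes of the unfolded protein response 21 had a peak, and *Cebpb* and *Ddit4* were nearest to a cluster peak (9.52%, 2.65 to 28.9). *Ddit4* encodes an inhibitor of mTORC1 that is induced by stress. Its cluster was shared with *Dnajb12*, which encodes a membrane-bound chaperone of the endoplasmic reticulum. The cluster lay in intergenic DNA, with scores of 8.76, 10.8, 12.7 and 7.37 and without a full site in any of the 4 peaks. The first 2 peaks were 20144 and 28484 bp from the TSS of *Dnajb12*. The last 2 were 35442 and 30515 bp from that of *Ddit4*. The highest peak nearest to *Ddit4*, with a score of 14.7, lay outside this cluster. The other genes of this list, such as *Xbp1*, *Ern1* and *Herpud1*, had groups of at most 3 peaks.

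The remaining cluster of 9 peaks, at *Reep5* on chromosome 18, extended over 54668 bp to *Pkd2l2*. *Reep5* encodes a membrane-shaping protein of the endoplasmic reticulum. The scores were 7.57, 8.56, 7.37, 6.37, 6.57, 8.96 and 5.38 at *Reep5*, and 11.6 and 6.17 at *Pkd2l2*. The peak at the *Reep5* promoter had 6.37, so it was not one of the higher peaks. Of the 9 peaks, 5 remained in a cluster when only peaks at or above the median score of the list were joined, beside 7 of the 9 at *Uck2*.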

How the data were processed

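The authors deposited 1 merged peak list on mm10, in which every peak is 173 bp wide. It gives a peak score, a focus ratio (a fraction of tags) and the distance to the nearest TSS in bp, all as deposited. Per the file header, the list was annotated with annotatePeaks.pl of HOMER. The submitters' processing notes name BWA, Picard and MACS2, and versions and thresholds are not given in the sources used here. For peak calling the study's methods name the RUbioSeq+ pipeline and HOMER, without separate steps for the NFIC libraries. Which program called the peaks of this list is therefore not certain. Columns with values of single samples number 0, and the depth of each library is unknown.

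Peaks were joined into groups with a distance of 12.5 kb and a minimum of 4 peaks. RefSeq's GRCm38 supplied the sequences and the protein-coding TSSs, and the authors may have annotated with another release. Intervals are 95% Wilson intervals and 95% order-statistic intervals. The clusters named are the 10 with the most peaks, the 5 with the highest median score, the 5 with the most peaks per 10 kb and those with a gene of 5 lists (acinar transcription factors, digestive enzymes, NFI family, circadian clock, unfolded protein response). A cluster is called by the gene that is nearest to more of its peaks than any other gene, and in ties by that of the highest peak. Some genes and clusters that this rule names are not reported here. The clusters, lists and rules were chosen with earlier results of these data known. Joining, site search and intervals were tested on simulated data. The alternatives varied the joining distance, the minimum number, the peaks kept and the site search. Python 3.11.15, numpy 2.4.6, pandas 2.3.3, scipy 1.17.1 and matplotlib 3.10.9 were used.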

Additional observations from a re-analysis of the deposited data

How the results depend on the processing

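Without values per library, leaving out a replicate was not possible. With a joining distance of 5000 bp there were 13 clusters of 52 peaks, with a median score of 9.06, a full site in 48.1%, 9.62% in the promoter-TSS class and a TSS in 38.5% of the clusters. With 25000 bp these were 653 clusters, 3355 peaks, 7.57, 53.3% with a full site and 69.8% with a TSS. A minimum of 3 peaks gave 718 clusters, 2511 peaks and 47.6% with a TSS, and a minimum of 5 gave 76, 428 and 64.5%. Peaks at or above the median score alone gave 82 clusters of 366 peaks, with a median score of 9.66 and a full site in 60.7%. The share with a full site was 12.8% without a mismatch and 64.5% in 500-bp windows. Numbers of clusters and the share with a TSS thus follow the rule for joining, whereas the promoter-TSS share stayed between 9.62% and 14.5% in the settings tried. At 5000 bp the share with a full site was below that of all peaks, on 52 peaks. Counting peaks within 1000 bp as 1 and adding chromosome X moved none of these values beyond its interval or 1.5 times.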

Other observations

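Clusters were also counted for lists of other factors. Of all 20558 autosomal protein-coding genes 7704 had a peak, and 4.27% of these were nearest to a cluster peak. Each interval below includes 4.27%. Of 15 AP-1 genes 10 had a peak, and *Jund* alone (10%, 1.79 to 40.4) was nearest to a cluster peak. *Jund* was nearest to 3 peaks of a cluster of 5, which it shared with *Lsm4* and in which the scores ran from 4.78 to 17.1. Of 25 KLF and SP genes 17 had a peak, and 2 of these (11.8%, 3.29 to 34.3) were nearest to a cluster peak. *Klf3*, which encodes a transcriptional repressor, was the nearest gene of all 5 peaks of a cluster with a median score of 12 and 2 promoter peaks. *Klf13* was nearest to 2 peaks of a cluster of 6. Of 36 nuclear receptor genes 26 had a peak, and *Nr4a1* alone (3.85%, 0.682 to 18.9) was nearest to a cluster peak. This was 1 peak of a cluster of 5. Of 81 ribosomal protein genes 25 had a peak, and *Rpl29* alone (4.0%, 0.71 to 19.5) was nearest to a cluster peak, with a score of 3.98. Of 18 genes of islet hormones and factors 6 had a peak, none in a cluster, and a count of 0 of 6 allows a share of up to 50% with 3 counts as the limit.

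Peaks of a cluster rarely resembled each other in sequence. In 208 of the 233 clusters no pair of peaks shared a word of 12 bases. Pairs that shared at least 20% of their words were found in 2 clusters, at *Klk1b5* (51.9%) and at *Acot1* (59.9%), both at tandem copies of a gene. *Acot1*, named after its values were seen, encodes an acyl-CoA thioesterase, and its peaks of 10.8 and 14.5 were the pair. The next highest value, 19.5%, was that of *Tmcc2*. It belonged to its first 2 peaks, which lay 352 bp apart and both held copies of the same repeated stretch of bases. The placement of reads in these peaks is uncertain as well.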
